A study of Mus musculus with 9 samples.

Results

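Interleukin and tumor necrosis factor (TNF) family genes that differed between bone marrow endothelial progenitor cells (EPCs) of male, female and ovariectomized mice are described here: 27 of the 2810 genes in the 3 deposited tables. The members were taken by gene name, as every listed gene whose symbol starts with Il, Tnfsf, Tnfrsf or Csf and a digit, or equals Tnf, without Il1b. RNA sequencing was carried out on 3 libraries each of male (M-EPC), female (F-EPC) and ovariectomized female (OVX-EPC) cells from C57BL/6J mice aged 8 weeks, with ovariectomy at about 35 days of age. All groups were lineage-negative bone marrow cells selected magnetically for Sca-1 and CD31 and grown in EGM-2, an endothelial growth medium, although the labels also call them freshly isolated. Each table compares one pair of groups and holds the genes that had already passed the screen of the authors, so each listed gene had to differ there, and a gene that is absent from a table was not listed for that pair. Levels in such a pair are given as a description where the other tables hold the libraries.

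Interleukins are secreted signals between immune cells and other cells. IL-12 family and most other interleukin receptors signal through JAK kinases and STAT factors, whereas the receptors of the IL-1 family recruit MyD88 and IRAK kinases and lead to NF-kB. TNF family ligands are trimers, often held on the cell surface, and their receptors use TRAF adaptors to activate NF-kB or, for those with a death domain, start cell death. Secreted inhibitors such as the IL-1 receptor antagonist and decoy receptors such as osteoprotegerin hold these signals down.

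The GENCODE M21 annotation has 121 protein-coding genes with such names, of which 27 were listed: 18 of 81 interleukin and interleukin receptor genes, 2 of 12 TNF ligand genes, 7 of 20 TNF receptor genes and 0 of 8 Csf genes. Tnf itself was in no table. The members were 7 ligands or ligand subunits (Il12a, Il12b, Il27, Il1a, Il33, Tnfsf9 and Tnfsf10), 3 secreted inhibitors (Il1rn, Il18bp and Tnfrsf11b) and 17 receptors. Of the 27 genes, 12 were in 1 table, 15 in 2 and 0 in 3, giving 42 entries. The 15 genes could be read in all 9 libraries on a common scale of normalized counts, which are reads divided by a library's size factor. Levels compared per kb of exon were highest for Il10ra, the ligand-binding chain of the IL-10 receptor, at 2132 normalized counts per kb in M-EPCs, followed by Tnfrsf14 at 1864, Il18bp at 1746 and Il4ra at 986 per kb.

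Reads of the listed genes summed to between 454298 and 2070442 per library, which is not the depth of the whole library. Endothelial markers were checked against the cell label: 5 of 11 were listed between M-EPCs and F-EPCs, with Pecam1, which encodes CD31, higher in M-EPCs (487 against 157 mean normalized counts) and Kdr, Vwf, Tie1 and Esam lower, so that the listed markers summed to 795 to 833 in M-EPCs and 2932 to 2972 in F-EPCs. The same 4 were lower in male than in OVX cells (sums of 319 to 352 against 3763 to 4107), and Pecam1 was lower in the female than in the OVX-EPC libraries (156 to 172 against 371 to 388). Vwf alone made up most of the F-EPC and OVX-EPC sums set against M-EPCs, with means of 2351 and 3452. Megakaryocyte markers (5 of 6 listed) summed to 1031 to 1099 in M-EPCs against 7377 to 7785 in F-EPCs and to 1053 to 1124 against 8873 to 9474 in OVX-EPCs, and 1 of 6, Gp9, was lower in F-EPCs (117 to 146) than in OVX-EPCs (229.7 to 326). With size factors recomputed from the listed genes by TMM, these F-EPC minus OVX-EPC differences, of -1.21 for Pecam1 and -1.01 for Gp9 on the log2 scale, were -0.08 and 0.11 (edgeR adjusted p = 0.616 and 0.573), so neither was called. TMM assumes that most genes do not change, whereas listed genes were selected for change, so it cannot settle the scale. Monocyte and macrophage markers, with 3, 2 and 0 of 11 listed, summed to 218 to 313 in M-EPCs against 844 to 905 in F-EPCs, and to 78.1 to 130 against 364 to 463 in OVX-EPCs. Neutrophil markers, with 6, 4 and 5 of 10 listed, summed to 171 to 235 in M-EPCs against 1106 to 1136 in F-EPCs, to 119 to 186 against 522 to 541 in OVX-EPCs, and to 575 to 631 in F-EPCs against 139 to 163 in OVX-EPCs, where 4 were higher in F-EPCs and Elane was lower (-2.39 on the log2 scale, and -0.94 with TMM, edgeR adjusted p = 0.298). All marker sums here and below leave out the unlisted markers of each type, whose levels are not known here. Each listed marker had to differ between its groups to be listed, so the sums do not measure a cell type. In bulk libraries fewer cells of a type and less RNA per cell cannot be told apart.

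Between M-EPCs and F-EPCs, 9 of 17 members were higher in M-EPCs and 8 were lower. Among all 2093 genes in that table, 49.0% were called higher in M-EPCs, 49.8% lower and 98.8% in either direction, by limma at an adjusted p under 0.05 and a log2 fold change of at least 1 in size. Ligands split 3 to 3, secreted inhibitors 1 to 1 and receptors 5 to 4. Against OVX-EPCs, 3 of 14 members were higher in M-EPCs and 11 were lower, where 41.0% and 58.0% of the 1317 listed genes were called higher and lower, and 99.0% in either direction. Receptors were mostly on the lower side, with 8 of 9 below OVX-EPCs and Il15ra as the exception. Between F-EPCs and OVX-EPCs, 2 of 11 members were higher in F-EPCs and 9 were lower, where 31.1% and 67.7% of the 811 listed genes were called higher and lower, and 98.8% in either direction. All 7 receptors in that table were lower in F-EPCs.

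The median log2 fold change over the members was 1.21 for M-EPCs minus F-EPCs, -1.78 for M-EPCs minus OVX-EPCs and -1.52 for F-EPCs minus OVX-EPCs, beside -0.99, -1.26 and -1.31 over all listed genes. In the table of M-EPCs and F-EPCs the genes split almost evenly on either side of the screen, so the sign of a median there rests on a few genes, and that of all listed genes was 0.99 with a minimum mean of 10. In absolute size the medians were 1.80, 1.97 and 1.78 for members and 1.62, 1.80 and 1.66 for all listed genes. All 42 entries had 3 libraries of one group above all 3 of the other, as did 98.3%, 99.2% and 98.9% of the listed genes in the 3 tables. The comparisons share libraries pairwise and are given side by side for that reason. Adjusted p-values of the members by limma ran up to 0.0075, 0.00412 and 0.00502 in the 3 tables, and the exact permutation test of 3 against 3 libraries gave 0.1, the smallest value it allows.

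**Figure D1:**
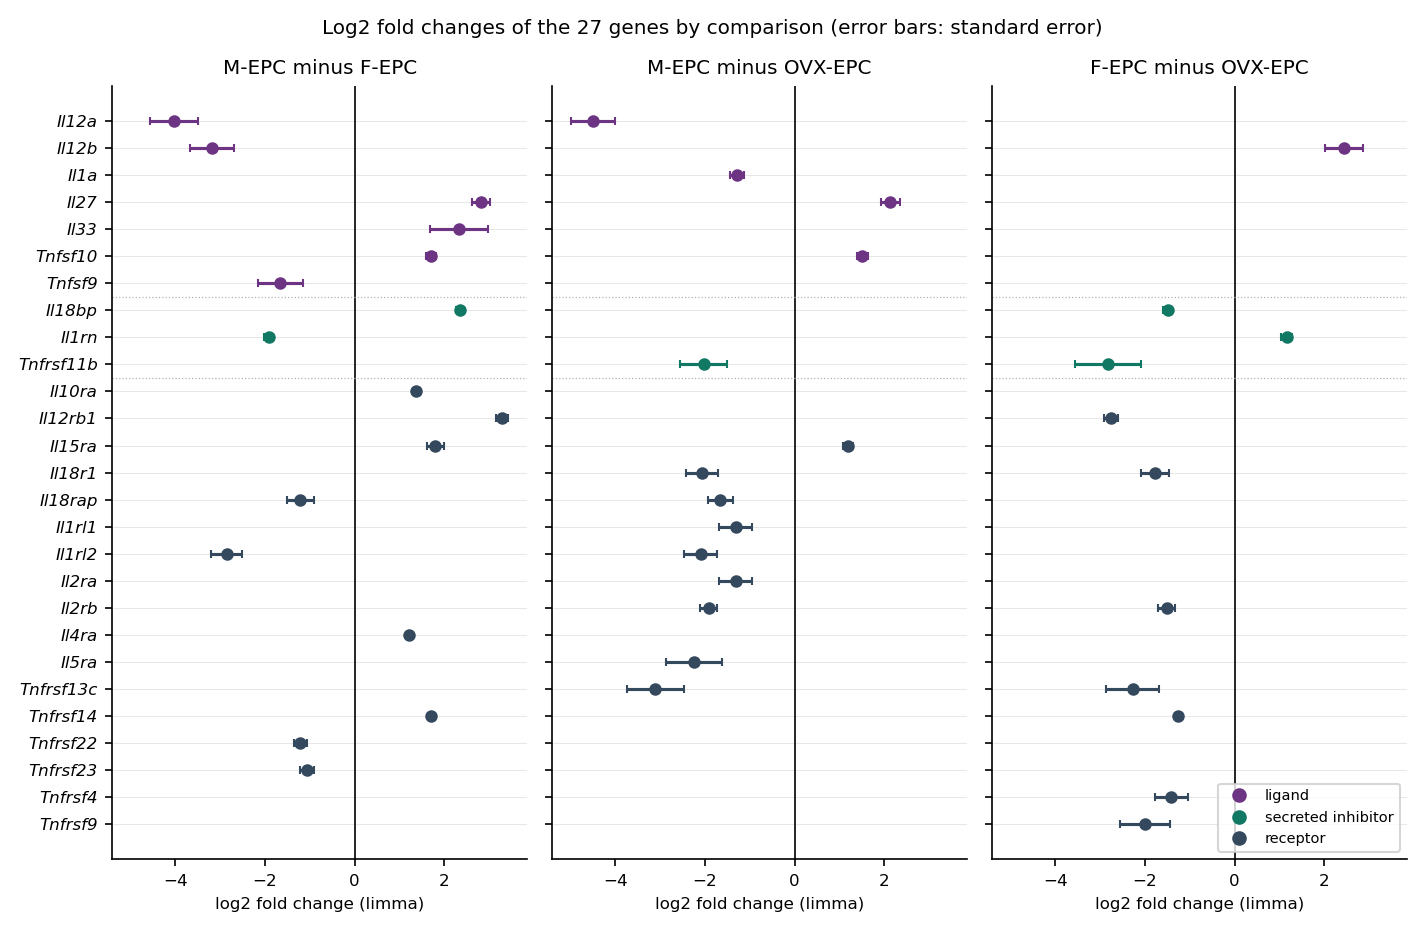
Log2 fold change (x axis, limma on log2 of normalized count plus 1, with its standard error) of each member (y axis), in 1 panel for each comparison; a row without a point is a gene that the table does not list. Between F-EPCs and OVX-EPCs the 7 receptors all lie left of 0, and between M-EPCs and OVX-EPCs Il15ra is the receptor to the right of 0.

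How many members were called between F-EPCs and OVX-EPCs depended on the scale. Size factors recomputed from the listed genes assume that most genes do not change, whereas these genes were selected for change. Such size factors therefore cannot show which scale holds between F-EPCs and OVX-EPCs. With size factors recomputed from the listed genes, the median log2 fold change of all listed genes moved by 1.14 (TMM) and 1.13 (DESeq2) there, and 3 of 11 members were called, Il12b and Il1rn as higher and Il12rb1 as lower, in place of 2 and 9; of all listed genes called, 63.1% and 67.1% were then higher in F-EPCs in place of 31.5%. The same recomputation with DESeq2 called 3 members higher and 7 lower between M-EPCs and OVX-EPCs (52.6% of all called genes higher in place of 41.4%) and 8 higher and 8 lower between M-EPCs and F-EPCs (37.2% in place of 49.6%). The members no longer called were Il1a, Il1rl1, Il2ra and Il5ra against OVX-EPCs and Il4ra against F-EPCs, and Tnfrsf23 was not called between M-EPCs and F-EPCs with TMM. No member changed direction. Of 12 genes of the pathway and marker lists called lower in female than in OVX cells, 2 were still called with either set of recomputed size factors and 3 had a value above 0.

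Il12a had limma log2 fold changes of -4.02 for M-EPCs minus F-EPCs (-6.47 with a pseudocount of 0.1) and -4.50 for M-EPCs minus OVX-EPCs (-6.96). It encodes the p35 subunit of IL-12, and the normalized counts were 0.952, 0 and 0 in M-EPCs, 13.1, 15.5 and 35.1 in F-EPCs and 27.3, 29.5 and 23.6 in OVX-EPCs. The M-EPC libraries together held 1 Il12a read, whereas F-EPCs and OVX-EPCs overlapped. The ratio of F-EPCs to M-EPCs was 66.9-fold with a 95% exact binomial interval of 11.2 to 2579, and that of OVX-EPCs to M-EPCs was 84.4-fold with an interval of 14.1 to 3216, both for counting error only. Il12b encodes the p40 subunit, shared by IL-12 and IL-23, and read 1.90, 4.49 and 1.20 in M-EPCs, 25.2, 32.0 and 29.4 in F-EPCs and 5.65, 5.54 and 2.83 in OVX-EPCs. F-EPCs stood above both other groups, which overlapped. The log2 fold change was -3.18 ± 0.48 (SE, n = 3 per group) for M-EPCs minus F-EPCs by limma (adjusted p = 6.49e-05) and 2.44 ± 0.43 for F-EPCs minus OVX-EPCs (adjusted p = 0.000349). On the authors' scale the 2 IL-12 subunits differed in where OVX-EPCs lay: they overlapped F-EPCs for Il12a and M-EPCs for Il12b.

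Il27 encodes the p28 subunit of IL-27, a cytokine of the same family, and ran the other way. Its normalized counts were 263, 258 and 277 in M-EPCs, 32.3, 46.5 and 33.2 in F-EPCs and 78.2, 63.7 and 42.5 in OVX-EPCs. M-EPCs were above both other groups by log2 fold changes of 2.82 ± 0.20 (limma adjusted p = 4.44e-08) and 2.14 ± 0.21 (adjusted p = 9.59e-07), and F-EPCs and OVX-EPCs overlapped. Exons of Il27 overlap those of Apobr on the opposite strand over 10.1% of their length. The methods name a directional library kit, but whether reads were counted by strand is not given in the sources used here.

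Il12rb1, the receptor chain that binds p40, read 571, 532 and 597 in M-EPCs, 52.5, 54.2 and 64.5 in F-EPCs and 404, 337 and 425 in OVX-EPCs. No groups overlapped, and OVX-EPCs lay nearer to M-EPCs than to F-EPCs. M-EPCs minus F-EPCs gave a log2 fold change of 3.29 ± 0.14 (limma adjusted p = 2.99e-10), and F-EPCs minus OVX-EPCs gave -2.75 ± 0.16 (adjusted p = 4.76e-08). F-EPCs thus had the highest Il12b and the lowest Il12rb1 of the 3 groups. Of the dendritic cell markers, 5 of 10 were listed between M-EPCs and F-EPCs, summing to 161 to 200.8 and 222 to 230.3, 5 between M-EPCs and OVX-EPCs, summing to 1151 to 1264 and 2782 to 3120, and 2 between F-EPCs and OVX-EPCs, summing to 97.3 to 139 and 90.2 to 119. Cd209a was at 0 in M-EPCs, and Ccr7, a receptor of mature dendritic cells, had means of 0.399 in male and 91.7 in female cells. Batf3, a transcription factor of dendritic cells, ran the other way, with means of 172 in male and 80.5 in female cells, and made up most of the M-EPC sum beside F-EPCs. Itgax made up nearly all of both sums of M-EPCs and OVX-EPCs, with means of 1193 and 2762. For F-EPCs minus OVX-EPCs the 2 listed markers had opposite signs, with log2 fold changes of 2.05 for Ccr7 and -1.90 for Siglech, the latter -0.74 with TMM (edgeR adjusted p = 0.0653). Their part in the Il12a and Il12b values was not tested.

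The other ligands were found in the IL-1 and TNF families. Tnfsf10, the death ligand TRAIL, read 540, 557 and 592 in M-EPCs, 156, 183 and 176 in F-EPCs and 206, 220 and 170 in OVX-EPCs. M-EPCs were higher than F-EPCs by 1.71 ± 0.10 on the log2 scale (limma adjusted p = 1.35e-08) and than OVX-EPCs by 1.51 ± 0.12 (adjusted p = 1.18e-07), with F-EPCs and OVX-EPCs overlapping. Tnfsf9, the ligand of 4-1BB, averaged 10.6 ± 5.70 (SD, n = 3) in male and 34.0 ± 13.0 in female cells, and Il1a, an IL-1 alarmin, averaged 147 ± 10.1 in male and 362 ± 66.8 in OVX cells. Exons of Tnfsf9 and Il1a overlap antisense genes over 14.9% and 11.2% of their length. Il33, an alarmin of the IL-1 family, is added because F-EPCs were at 0, a choice made after its values were seen. Its reads were 3, 16 and 1 in M-EPCs and 0 in each F-EPC library, at least 2.10-fold higher in M-EPCs against the floor of 3 reads per library. Without M-EPC replicate 2 the M-EPC mean was 2.03 normalized counts, under the floor of 2.93, and no fold can be given; the fitted log2 fold change, which depends on the pseudocount, was 2.34, with 1.54 without replicate 2 and 2.94 without replicate 3.

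**Figure D2:**
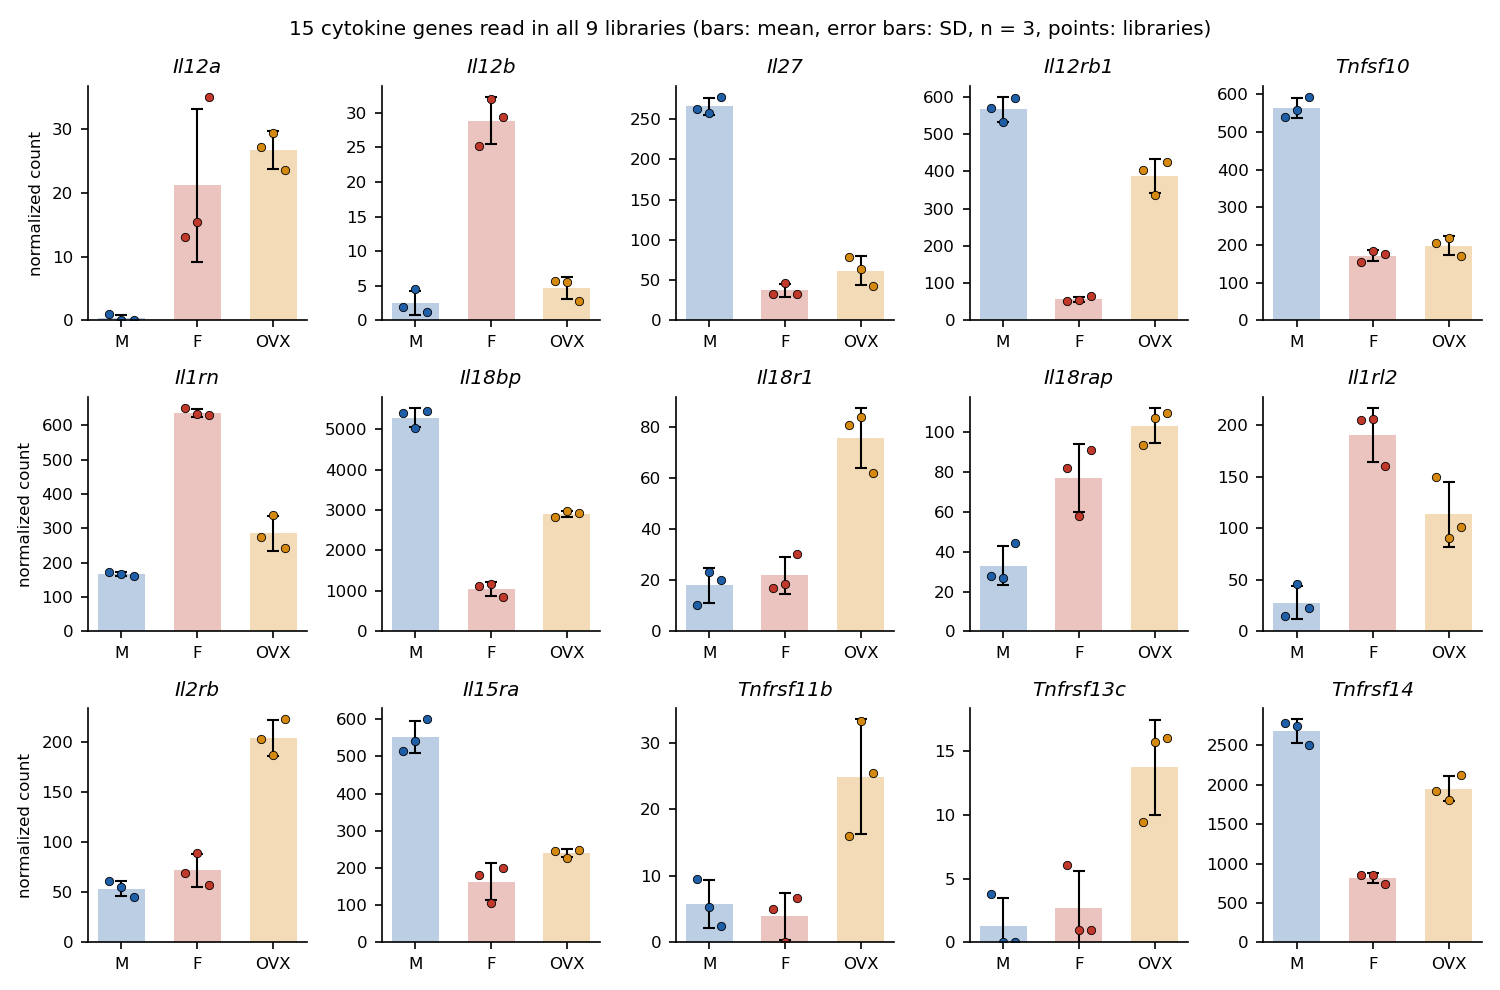
Normalized counts (y axis, from 0) of the 15 members that could be read in all 9 libraries, with the mean of each group as a bar, its SD (n = 3) as an error bar and each library as a point. On the scale of the authors' size factors, M-EPCs are highest and F-EPCs lowest in 6 panels. In 5 panels OVX-EPCs are highest and M-EPCs lowest, and Tnfrsf11b is highest in OVX-EPCs and lowest in F-EPCs. For Il12a, Il15ra, Il18rap, Il27 and Tnfsf10 the order of F-EPCs and OVX-EPCs could turn with the scale.

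Secreted inhibitors did not share a direction. Il1rn, the IL-1 receptor antagonist, read 174, 166 and 163 in M-EPCs, 650.3, 632 and 629 in F-EPCs and 275, 339.5 and 242 in OVX-EPCs. The 3 groups did not overlap, with F-EPCs highest. The log2 fold change was -1.92 ± 0.09 for M-EPCs minus F-EPCs (limma adjusted p = 1.38e-09) and 1.17 ± 0.12 for F-EPCs minus OVX-EPCs (adjusted p = 6.68e-06). Il18bp, the soluble protein that binds IL-18, had the opposite order, with 5386, 5020 and 5447 in M-EPCs, 1115, 1164 and 851 in F-EPCs and 2831, 2964 and 2924 in OVX-EPCs. Again no groups overlapped. M-EPCs exceeded F-EPCs by 2.35 ± 0.10 on the log2 scale (limma adjusted p = 2.78e-10), and F-EPCs minus OVX-EPCs gave -1.49 ± 0.10 (adjusted p = 2.04e-07). The latter was -0.35 with TMM (edgeR adjusted p = 0.0071) and -0.36 with DESeq2 size factors (adjusted p = 0.000453), both under the fold threshold. Tnfrsf11b, osteoprotegerin, is a decoy for RANKL and TRAIL and read 9.52, 5.39 and 2.39 in M-EPCs, 5.05, 0 and 6.63 in F-EPCs and 16.0, 33.2 and 25.5 in OVX-EPCs. OVX-EPCs stood above the other groups, with log2 fold changes of -2.03 ± 0.53 for M-EPCs (limma adjusted p = 0.00269) and -2.82 ± 0.74 for F-EPCs (adjusted p = 0.00394), the latter -1.88 without F-EPC replicate 2 and -4.005 with a pseudocount of 0.1. With TMM it was -1.53 and was not called (edgeR adjusted p = 0.0785).

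A cluster of IL-1 family receptors lies on chromosome 1, and its 4 listed genes were lower in M-EPCs when set against OVX-EPCs. In GRCm38 the cluster runs from Il1r2 to Il18rap over 478 kb on the plus strand, chr1:40074079-40551705, and neither Il1r2 nor Il1r1, its first genes, was in any table. Il1rl2, the receptor of IL-36, read 15.2, 45.8 and 22.7 in M-EPCs, 205, 206 and 160.2 in F-EPCs and 150, 90.4 and 101 in OVX-EPCs. The groups did not overlap. The log2 fold change of M-EPCs was -2.86 ± 0.34 against F-EPCs (limma adjusted p = 7.87e-06) and -2.10 ± 0.37 against OVX-EPCs (adjusted p = 0.000165). Il1rl1, known as ST2, the IL-33 receptor, averaged 21.5 ± 5.66 (SD, n = 3) in male and 55.7 ± 18.9 in OVX cells.

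Il18r1 and Il18rap encode the chains of the IL-18 receptor. Il18r1 read 10.5, 23.4 and 20.3 in M-EPCs, 17.2, 18.4 and 30.3 in F-EPCs and 81.0, 84.0 and 62.3 in OVX-EPCs. M-EPCs and F-EPCs overlapped, both below OVX-EPCs, with log2 fold changes of -2.07 ± 0.36 (limma adjusted p = 0.000137) and -1.78 ± 0.31 (adjusted p = 0.000353). The F-EPC value was -0.65 with TMM and was not called (edgeR adjusted p = 0.109). Il18rap read 27.6, 26.9 and 44.2 in M-EPCs, 81.8, 58.1 and 91.0 in F-EPCs and 93.3, 107 and 109 in OVX-EPCs. M-EPCs were below both other groups, by log2 fold changes of -1.21 ± 0.30 against F-EPCs (limma adjusted p = 0.00247) and -1.65 ± 0.27 against OVX-EPCs (adjusted p = 8.58e-05).

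**Figure D3:**
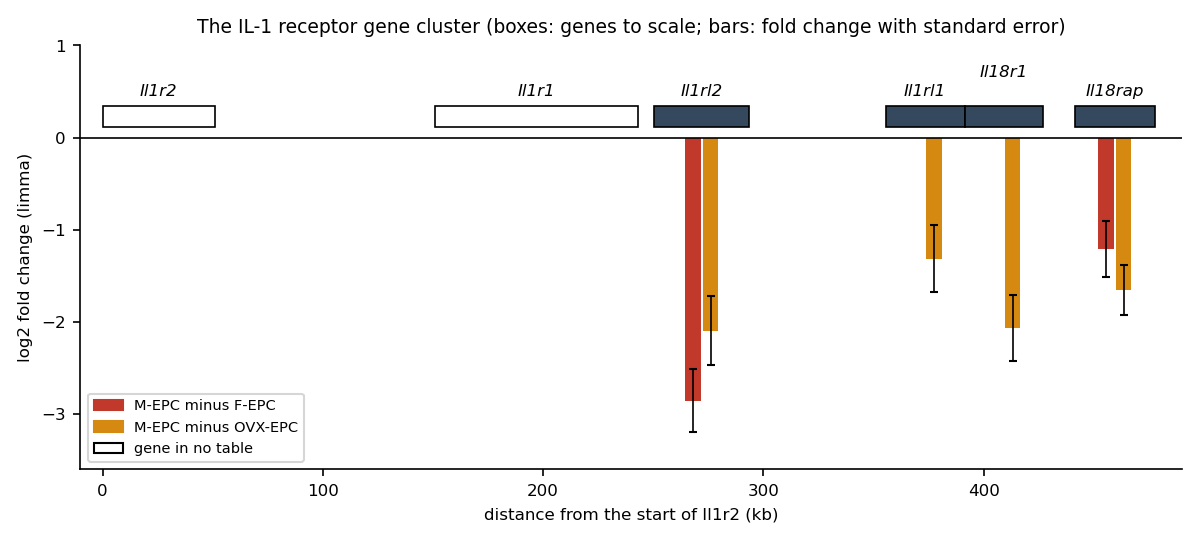
Log2 fold changes (y axis, limma, with standard errors) along the IL-1 receptor cluster, drawn by distance in kb from the start of Il1r2; boxes are the genes to scale, open where no table lists them. Each of the 4 listed genes has a bar below 0 for M-EPCs minus OVX-EPCs, the longest at Il1rl2 with -2.10 and Il18r1 with -2.07.

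Promoters of this cluster are shown because all 4 listed genes were lower in M-EPCs against OVX-EPCs; against F-EPCs, Il1rl2 and Il18rap were. RefSeq promoters (GRCm38.p6, 250 bases before to 50 after a start site) were matched for 20 of the 27 members, with 29 promoters in all. Capitals mark the letters of 2 motifs searched on both strands: GGNNTTTCC, a core of the NF-kB site, and TTCNNNGAA, the gamma-activated site bound by STAT factors.
Il1rl2, chr1:40324339-40324638, plus strand: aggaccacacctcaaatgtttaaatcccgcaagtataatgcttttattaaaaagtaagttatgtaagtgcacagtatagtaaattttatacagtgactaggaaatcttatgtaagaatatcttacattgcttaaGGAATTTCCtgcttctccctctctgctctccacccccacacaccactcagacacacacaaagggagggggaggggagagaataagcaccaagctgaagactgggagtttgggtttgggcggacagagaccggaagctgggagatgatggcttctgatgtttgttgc
Il1rl1, chr1:40439379-40439678, plus strand: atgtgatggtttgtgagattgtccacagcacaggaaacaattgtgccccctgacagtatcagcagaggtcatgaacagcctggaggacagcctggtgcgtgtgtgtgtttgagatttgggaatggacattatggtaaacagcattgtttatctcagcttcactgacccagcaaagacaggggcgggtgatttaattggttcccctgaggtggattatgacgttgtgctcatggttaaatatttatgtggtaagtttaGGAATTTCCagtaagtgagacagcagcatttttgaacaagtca
Il18r1, chr1:40465756-40466055, plus strand: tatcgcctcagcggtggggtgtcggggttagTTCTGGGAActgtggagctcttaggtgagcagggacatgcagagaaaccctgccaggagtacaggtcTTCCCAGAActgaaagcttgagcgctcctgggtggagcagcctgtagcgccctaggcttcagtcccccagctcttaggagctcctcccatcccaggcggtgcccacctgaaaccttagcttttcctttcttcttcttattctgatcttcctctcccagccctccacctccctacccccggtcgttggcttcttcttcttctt
Il18rap, chr1:40515112-40515411, plus strand: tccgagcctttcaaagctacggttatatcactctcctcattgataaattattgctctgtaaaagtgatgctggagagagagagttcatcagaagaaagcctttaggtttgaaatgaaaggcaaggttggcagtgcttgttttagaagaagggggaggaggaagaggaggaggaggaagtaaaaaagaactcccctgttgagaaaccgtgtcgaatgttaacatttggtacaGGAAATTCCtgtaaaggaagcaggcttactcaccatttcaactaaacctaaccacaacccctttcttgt

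The first letter of the NF-kB match was 116 bases before the start of Il1rl2, 8 bases after that of Il1rl1 and 19 bases before that of Il18rap. Il18r1 had 2 matches of the gamma-activated site, 219 and 152 bases before its start, and no NF-kB match in the printed window. Another promoter of Il1rl1 and 2 others of Il18r1 had no match of either motif. Over the members, 8 of 29 promoters (7 of 20 genes) had the NF-kB letters, as did 5.82% of all 32851 promoters, and 2 of 29 promoters (2 of 20 genes) had the gamma-activated letters, found in 8.30% of all promoters. No printed matches overlapped each other. Such matches are descriptions of sequence and not sites of binding.

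Il15ra and Tnfrsf14 had the letters of the interferon response core, GAAANNGAA, which was in 4 of 29 member promoters (3 of 20 genes) and in 8.56% of all promoters. The third member was Tnfrsf4, which was higher in OVX-EPCs than in F-EPCs and had its match 225 bases before a start. Il15ra and Tnfrsf14 are shown as those of the 3 that were highest in M-EPCs, with the match in capitals; Il18bp and Tnfsf10, also highest there, had no match.
Il15ra, chr2:11705462-11705761, plus strand: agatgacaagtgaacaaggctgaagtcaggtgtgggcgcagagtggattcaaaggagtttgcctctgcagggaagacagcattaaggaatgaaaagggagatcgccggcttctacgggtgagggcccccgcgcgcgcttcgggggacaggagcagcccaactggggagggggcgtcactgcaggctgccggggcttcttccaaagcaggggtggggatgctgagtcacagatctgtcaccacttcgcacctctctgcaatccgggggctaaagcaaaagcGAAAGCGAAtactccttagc
Tnfrsf14, chr4:154928028-154928327, minus strand: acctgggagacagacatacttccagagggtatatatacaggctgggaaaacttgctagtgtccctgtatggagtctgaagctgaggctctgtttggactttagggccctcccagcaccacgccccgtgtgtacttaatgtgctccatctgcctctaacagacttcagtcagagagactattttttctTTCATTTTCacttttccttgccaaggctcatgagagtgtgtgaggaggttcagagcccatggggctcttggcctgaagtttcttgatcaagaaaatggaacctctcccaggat

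In the IL-2 and IL-15 receptor group, Il15ra and its neighbour Il2ra moved in opposite directions against OVX-EPCs. Il15ra, which presents IL-15 to other cells, read 515, 542 and 600.2 in M-EPCs, 182, 107 and 199.99 in F-EPCs and 246, 228 and 247 in OVX-EPCs. M-EPCs were highest and no groups overlapped. The log2 fold change was 1.80 ± 0.19 against F-EPCs (limma adjusted p = 3.03e-06) and 1.19 ± 0.11 against OVX-EPCs (adjusted p = 3.48e-07). Il2ra, the alpha chain of the IL-2 receptor, ends 12.1 kb before Il15ra on chromosome 2 and averaged 18.0 ± 5.29 (SD, n = 3) in male and 45.0 ± 4.41 in OVX cells. Il2rb, the chain that IL-2 and IL-15 share, read 60.9, 54.8 and 45.4 in M-EPCs, 69.7, 89.1 and 56.9 in F-EPCs and 203, 187 and 223 in OVX-EPCs. OVX-EPCs stood above the others, which overlapped, with log2 fold changes of -1.91 ± 0.19 for M-EPCs (limma adjusted p = 9.52e-07) and -1.52 ± 0.19 for F-EPCs (adjusted p = 2.99e-05). The F-EPC value was -0.38 with TMM and was not called (edgeR adjusted p = 0.0968).

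The other interleukin receptors were Il4ra, Il10ra and Il5ra. Il10ra averaged 7459 ± 182 (SD, n = 3) normalized counts in male and 2865 ± 24.3 in female cells. Il4ra, the chain for IL-4 and IL-13, had 5917 ± 59.7 and 2561 ± 15.1, and 9.51% of its exon length overlaps an antisense gene. On the authors' scale both genes were more than 2-fold higher in M-EPCs, with no overlap. With DESeq2 size factors the log2 fold changes were 1.03 for Il10ra and 0.86 for Il4ra, and Il4ra was not called. Il5ra, a receptor of eosinophils and basophils, read 1.95, 20.2 and 4.88 in M-EPCs and 34.7, 27.4 and 37.6 in OVX-EPCs, with a log2 fold change of -2.24 ± 0.63 (limma adjusted p = 0.00405). M-EPC replicate 2 was far above the other M-EPC libraries, and the log2 fold change was -3.03 without it and -1.60 without replicate 1. Basophil and mast cell markers were lower in M-EPCs too: 8 of 10 were listed against each other group, summing to 33.5 to 60.2 in M-EPCs and 592 to 621 in F-EPCs, and to 34.2 to 61.5 in M-EPCs and 868 to 1039 in OVX-EPCs, with Mcpt8 at 0 in M-EPCs. Their part in the Il5ra and Il1rl1 values was not tested.

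TNF receptors differed in their orders. Tnfrsf14, the herpesvirus entry mediator HVEM, read 2784, 2749 and 2508 in M-EPCs, 858, 856 and 739 in F-EPCs and 1924, 1802 and 2121 in OVX-EPCs. No groups overlapped, and the log2 fold change was 1.71 ± 0.07 for M-EPCs minus F-EPCs (limma adjusted p = 3.12e-10) and -1.26 ± 0.08 for F-EPCs minus OVX-EPCs (adjusted p = 1.67e-07). The latter was -0.12 with TMM (edgeR adjusted p = 0.239) and -0.13 with DESeq2 size factors (adjusted p = 0.195). Tnfrsf13c, the BAFF receptor of B cells, read 3.81, 0 and 0 in M-EPCs, 6.06, 0.968 and 0.948 in F-EPCs and 9.42, 15.7 and 16.0 in OVX-EPCs. OVX-EPCs were highest, with log2 fold changes of -3.11 ± 0.64 for M-EPCs (limma adjusted p = 0.000509) and -2.28 ± 0.59 for F-EPCs (adjusted p = 0.0037), and of -3.87 without M-EPC replicate 1 and -2.90 without F-EPC replicate 1. With TMM the F-EPC value was -1.24 and was not called (edgeR adjusted p = 0.168). The M-EPC libraries held 4, 0 and 0 reads, and with a pseudocount of 0.1 the M-EPC value was -5.33. Tnfrsf4 (OX40) and Tnfrsf9 (4-1BB), costimulatory receptors of T cells, were listed between F-EPCs and OVX-EPCs, at 15.1 ± 3.58 against 41.9 ± 11.3 and 6.67 ± 4.10 against 26.7 ± 8.14 (SD, n = 3). With TMM their log2 fold changes were -0.33 and -0.84, and neither was called (edgeR adjusted p = 0.523 and 0.221). Tnfrsf22 and Tnfrsf23, neighbouring decoy receptors for TRAIL on chromosome 7, were lower in male than in female cells, at 127 ± 17.7 against 293 ± 16.3 and 80.2 ± 5.77 against 168 ± 8.06. They share 27.4% and 19.3% of their 50-base stretches, so the split of reads between them is uncertain.

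Markers of lymphocytes, cells in which Il2ra, Il2rb, Il18r1, Il18rap, Tnfrsf13c, Tnfrsf4 and Tnfrsf9 are well known, differed between the same groups. Of 13 markers, 10 were listed as lower in male than in OVX cells (sums of 209 to 260.1 against 805 to 849), 6 as lower in male than in female cells (29.6 to 39.0 against 144 to 183) and 3, Cd3d, Cd79b and Ncr1, as lower in female than in OVX cells (211 to 264 against 502 to 545). Cd79b made up most of the last sums, with means of 222 and 462, and its log2 fold change of -1.06 was 0.07 with TMM, where none of the 3 was called (edgeR adjusted p = 0.0575 to 0.651). In the sums of male against OVX cells Cd79b was also more than any other marker, with means of 166 and 455. Klrb1c was at 0 in M-EPCs, whereas Cd79a and Ms4a1, genes of B cells, had means of 16.2 and 14.97 there and 86.6 and 91.0 in OVX-EPCs. Their part in the receptor values was not tested.

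**Figure D4:**
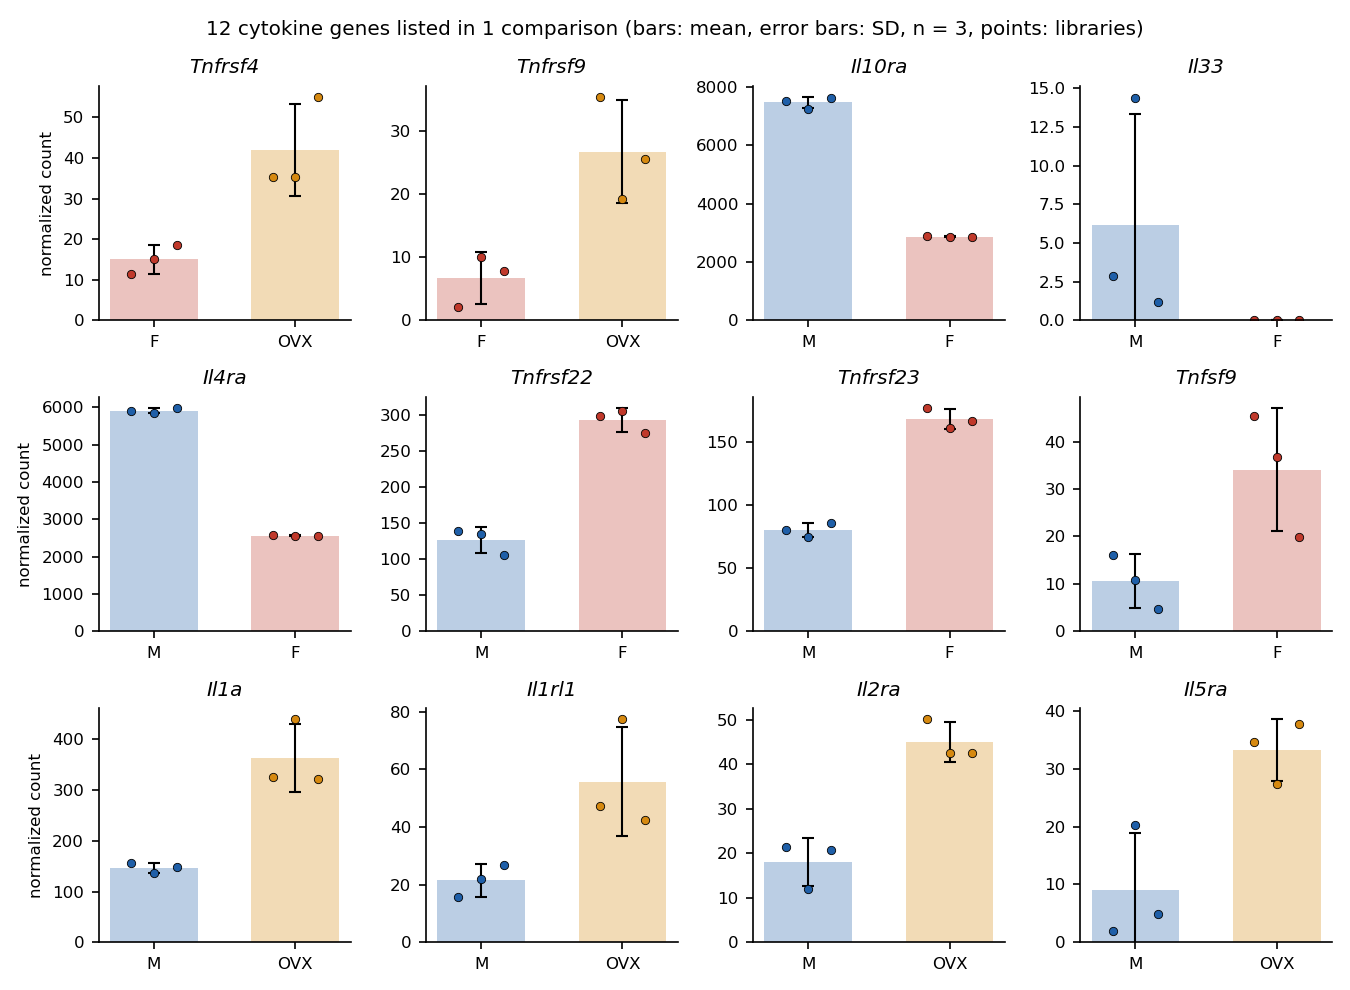
Normalized counts (y axis, from 0) of the 12 members listed in 1 comparison, with group means as bars, SD (n = 3) as error bars and libraries as points. Il10ra and Il4ra have M-EPC means of 7459 and 5917 with small spread, and M-EPC replicate 2 stands above the other M-EPC libraries for Il33 and Il5ra.

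Over the 15 members read in all 9 libraries, the order M-EPC, OVX-EPC, F-EPC from high to low was found for 6 (Il12rb1, Il15ra, Il18bp, Il27, Tnfrsf14 and Tnfsf10) and the order OVX-EPC, F-EPC, M-EPC for 5 (Il12a, Il18r1, Il18rap, Il2rb and Tnfrsf13c). Il12b, Il1rl2 and Il1rn had the order F-EPC, OVX-EPC, M-EPC. The OVX-EPC mean lay between those of M-EPCs and F-EPCs in 9 of 15, and in 39.7% of the 1165 genes listed in 2 tables. The orders rest on the scale of the authors' size factors: the log2 ratios of F-EPC to OVX-EPC means were -0.21 for Tnfsf10, -0.34 for Il12a, -0.42 for Il18rap, -0.56 for Il15ra and -0.72 for Il27, smaller than the 1.14 by which recomputed size factors moved that pair. For these genes F-EPCs and OVX-EPCs could change places with the scale. The counts of each order, the 9 of 15 and the 39.7% therefore hold on the authors' scale only. In the pair of groups whose table does not list the gene, the libraries overlapped for 8 members and did not for 7, Il12rb1, Il15ra, Il18bp, Il18rap, Il1rl2, Il1rn and Tnfrsf14, where the means differed by 1.34-fold to 1.82-fold, under the 2-fold screen. Of the 1165 genes listed in 2 tables, 37.4% did not overlap in the pair left out.

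Signalling genes were taken from lists of the same pathways. In the JAK-STAT list of 27 genes, Socs1 and Socs3 were among those higher in male than in female cells, and Stat4 was lower. Socs1, a feedback inhibitor of JAK kinases, had a log2 fold change of 2.68 ± 0.13, and Stat4, which IL-12 activates, had -1.64 ± 0.59 (limma adjusted p = 0.0174). Stat4 was low, with 3, 18 and 12 reads in M-EPCs and 33, 20 and 45 in F-EPCs. Against OVX-EPCs, Socs1 was higher in M-EPCs by 2.34 ± 0.13 on the log2 scale and Stat4 was lower (-1.89 ± 0.60), and Socs3 and Cish were lower in female than in OVX cells. With TMM the last 2 differences, of -1.08 and -1.62, were 0.04 and -0.46, and neither was called (edgeR adjusted p = 0.851 and 0.439). M-EPCs had more Il27, Il12rb1 and Socs1 and less Il12a, Il12b and Stat4 transcript than F-EPCs.

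Of 42 adaptor and NF-kB genes, 2 were listed between M-EPCs and F-EPCs, Nfkbie and Birc3, both higher in M-EPCs (log2 fold changes of 1.27 ± 0.11 and 1.13 ± 0.06). Nfkbiz (1.08 ± 0.09) and Tnip3 (1.63 ± 0.10) were higher in male than in OVX cells, and Tnip3, an inhibitor of NF-kB signalling, was also higher in female than in OVX cells (1.47 ± 0.11). Of 12 genes of cytokine processing, Nlrc4, an inflammasome sensor, was the listed member, higher in male than in female cells (1.08 ± 0.07), with 0 listed in the other tables. Of 43 related receptors and ligands outside the naming rule, 6 were higher and 3 lower in male than in female cells, 0 higher and 6 lower in male than in OVX cells, and 0 higher and 3 lower in female than in OVX cells, of which Ngfr and Ghr were still called with TMM. Ifng, which encodes interferon gamma, averaged 18.7 normalized counts in male cells and was at 0 in the female libraries. All listed genes of these lists passed the same call, as 98.8% to 99.0% of listed genes did.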

How the data were processed

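RNA sequencing libraries of 3 groups of mouse EPCs (n = 3 each) were analysed from 3 tables, 1 per pair of groups. Per the labels, the authors' processing notes name HISAT2, Cufflinks, Cuffnorm and DESeq with mm10, and the methods describe a screen at a fold change of at least 2. The deposited values are a signal, namely normalized counts made by the authors as reads divided by a size factor. Whole reads were recovered for 100% of values (tolerance 0.01 reads). Columns of the authors' fold changes and p-values were not used. The methods speak of biological replicates, but neither they nor the labels tie a library to a mouse or culture, so p-values measure the spread between these libraries.

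Here limma 3.58.1 (R 4.3.3) with an intensity trend was run on log2 of the deposited normalized count plus 1, over every gene of a table, with Benjamini-Hochberg adjustment. Calls required an adjusted p under 0.05 with a log2 fold change of 1 or more in size. Since tables list genes selected on the same libraries, calls describe and do not test anew. The limma test was run on simulated data with 200 genes changed 4-fold in each comparison. It recovered 200 in each, with 0, 1 and 1 false calls among 2093, 1317 and 811 genes. Recovery was not tested where most genes differ, as they do in these tables. Floors are 3 reads, and intervals are 95% exact binomial (Clopper-Pearson). OVX-EPC libraries were put on the scale of the M-EPC and F-EPC table through the M-EPC libraries, and the way through F-EPCs differed by at most 0.357%. Alternatives were edgeR 4.0.16 and DESeq2 1.42.0 on recovered reads, another pseudocount (0.1), a minimum mean of 10, stricter thresholds, a replicate block and leaving out each library. Gene positions, exon lengths and overlaps come from GENCODE M21 (GRCm38) and promoters from RefSeq. Library values were printed for members in 2 tables and for the 3 largest changes each way per table, and up to 4 genes per pathway list were named. Members, pathway lists and marker lists (monocyte and macrophage, dendritic cell, basophil and mast cell, neutrophil, lymphocyte, megakaryocyte, endothelial) were chosen with earlier results of these data known. Some genes of these lists are not reported here by name.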

Additional observations from a re-analysis of the deposited data

How the results depend on the processing

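No member changed direction in any alternative tried. The counts of members called were 17 for male against female cells, 14 for male against OVX cells and 11 for female against OVX cells. When a log2 fold change of 2 or more in size was required, they were 7, 7 and 5. With TMM and with DESeq2 size factors computed on the listed genes, the count between F-EPCs and OVX-EPCs was 3 in each case, where all listed genes called went from 801 to 404 and 380; these size factors assume that most genes do not change, and the tables hold genes selected for change. The same settings shifted the median log2 fold change of all listed genes by 0.07 and -0.37 for male against female cells and by 0.20 and 0.63 for male against OVX cells, with 16 and 16 and with 14 and 10 members called. Leaving out each library in turn gave 17 to 17, 14 to 14 and 11 to 11 calls. The minimum mean of 10 took out Il33 and left 16, 14 and 11.

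Replicates share numbers in the labels, but the deviations of same-numbered libraries correlated at -0.019 to 0.032, and the numbers were not taken as pairs. With the replicate number as a block, the counts were 17, 14 and 11. Replicates of a group differed beyond sampling noise (chi-square per degree of freedom of 3.07 to 24.8), so none was counted as a duplicate. Depth limits Il12a, Il33 and Tnfrsf13c, with 1, 20 and 4 reads over the M-EPC libraries.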
